A study of Mus musculus with 7 samples.

Results

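Fos, Fosb, Fosl2, Jun, Junb, Jund, Egr1, Atf3, Myc and Ier3 were taken from the count table by gene symbol, and all were found, 10 of its 56691 genes. They are known as AP-1 and immediate early genes. AP-1 is a pair of basic leucine zipper proteins, usually a Fos protein joined to a Jun protein or 2 Jun proteins together, that binds short sites in DNA and is activated by MAP kinases. Immediate early genes are transcribed without new protein synthesis once a cell is stimulated, and most of their mRNAs are short-lived. In liver they are known for their part in the acute phase response and in regeneration, and they also react to handling and dissection of the tissue. Ier3 does not belong with the transcription factors by function, since it encodes a small membrane protein that acts on cell survival.

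Liver RNA was sequenced from 4 control mice and 3 mice given lipopolysaccharide (LPS), a component of the bacterial outer membrane, at 10 mg/kg into the peritoneum and killed 24 h later. All were male C57BL/6J mice, an inbred strain, bought at 8 weeks of age and housed for 2 weeks, and 6 mice per group were kept in the study. What the control mice were injected with, and how long each dissection took, are not given in the sources used here, and the study's mice given sulforaphane were not analysed here. The comparison asks which of these genes still differed between LPS-treated and control livers a day after the injection. Total counts per mouse lay between 14991022 and 20500391, and 3 counts, taken as the smallest detectable amount, came to between 0.138 and 0.212 CPM (counts on a common scale, with library sizes adjusted by TMM factors). Such floors cover counting error only, since PCR copies are not independent molecules.

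The tissue and treatment labels were checked first. All 11 hepatocyte markers were detected and tested, led by Alb, which encodes albumin, and their summed level was 67641 to 91000 CPM in control mice and 47305 to 52467 CPM in LPS-treated mice. Of these markers 3 were higher and 3 lower in LPS-treated mice, beside 13.3% and 13% of all genes tested. The acute phase genes Hp, Saa1 and Lcn2 had no overlap between the groups and were higher after LPS, with log2 fold changes of 3.37, 7.99 and 9.73. Some libraries stood apart within their group. Genes of the mitochondrial genome took 23.7%, 14.6%, 7.48% and 8.96% of the counts in control replicates 1 to 4, and 6.45%, 3.83% and 3.94% in LPS replicates 1 to 3 (two-sided exact permutation test of the difference between groups, p = 0.0857, where 0.0286 is the smallest p possible). All control mice were above all LPS-treated mice in this share, and control replicate 1 had the largest. LPS replicate 1 had a summed level of 752 CPM for the 12 Kupffer cell and macrophage markers, against 168 and 173 CPM in LPS replicates 2 and 3 and 136 to 216 CPM in control mice. Marco, a scavenger receptor and the most abundant of them in LPS-treated mice, was at 410 CPM in LPS replicate 1. It was at 66.5 and 65.6 CPM in the other LPS-treated mice and at 2.37 to 5.55 CPM in control mice. In LPS replicates 2 and 3, Clec4f, Cd5l, Vsig4 and Timd4 lay below every control mouse, and Marco, Adgre1, Cd68 and C1qb above. Cd5l, for example, was at 4.90 and 3.30 CPM there, against 24.1 to 45.0 CPM in control mice. LPS replicates 2 and 3 were the closest pair (SD of log2 ratios 0.10, against 0.29 to 0.58 for other pairs of a group), and were kept as separate mice on their labels alone. Their variance was 3.81 times that of counting (5.58 to 10.7 in other pairs), which does not tell whether they are different livers.

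Of the 10 genes, 9 passed the filter on low counts and were tested, and Fosb did not pass. Junb, Fosl2 and Ier3 were higher in LPS-treated mice at an adjusted p below 0.05 (edgeR's quasi-likelihood test, adjusted over the 13683 genes tested). Ier3 passed the filter on low counts, which asks for 3 mice at 0.585 CPM or more before scaling, through the LPS group alone, as did 486 of all genes tested. It was called with no filter too, but that fit is a weak check. For Junb it gave an adjusted p of 2.22e-17 from edgeR, against 0.00124 with the filter, at a log2 fold change of 1.72 in both. The 3 of 9 are given as a description, beside 1825 of all genes tested (13.3%) that were higher at this threshold. Each of the 3 also had a log2 fold change above 1, and 7.81% of all genes passed both thresholds upwards. In each of the 3 the whole LPS group lay above the whole control group, as in 18.1% of all genes tested. None of the 9 was lower with edgeR's test, 0 of them at an unadjusted p below 0.05 and 0 with DESeq2, while 0 of the 9 had the whole LPS group below the control group. Of all genes, 13% were lower at this threshold, 7.31% also had a log2 fold change below -1, and 17.4% had the whole LPS group below. In either direction, 26.3% of all genes were called. Fos, Jun, Jund, Egr1, Atf3 and Myc were not past the threshold, and in each of them the groups overlapped. The median log2 fold change was 0.24 over the 9 genes and -0.01 over all genes tested.

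**Figure D1:**
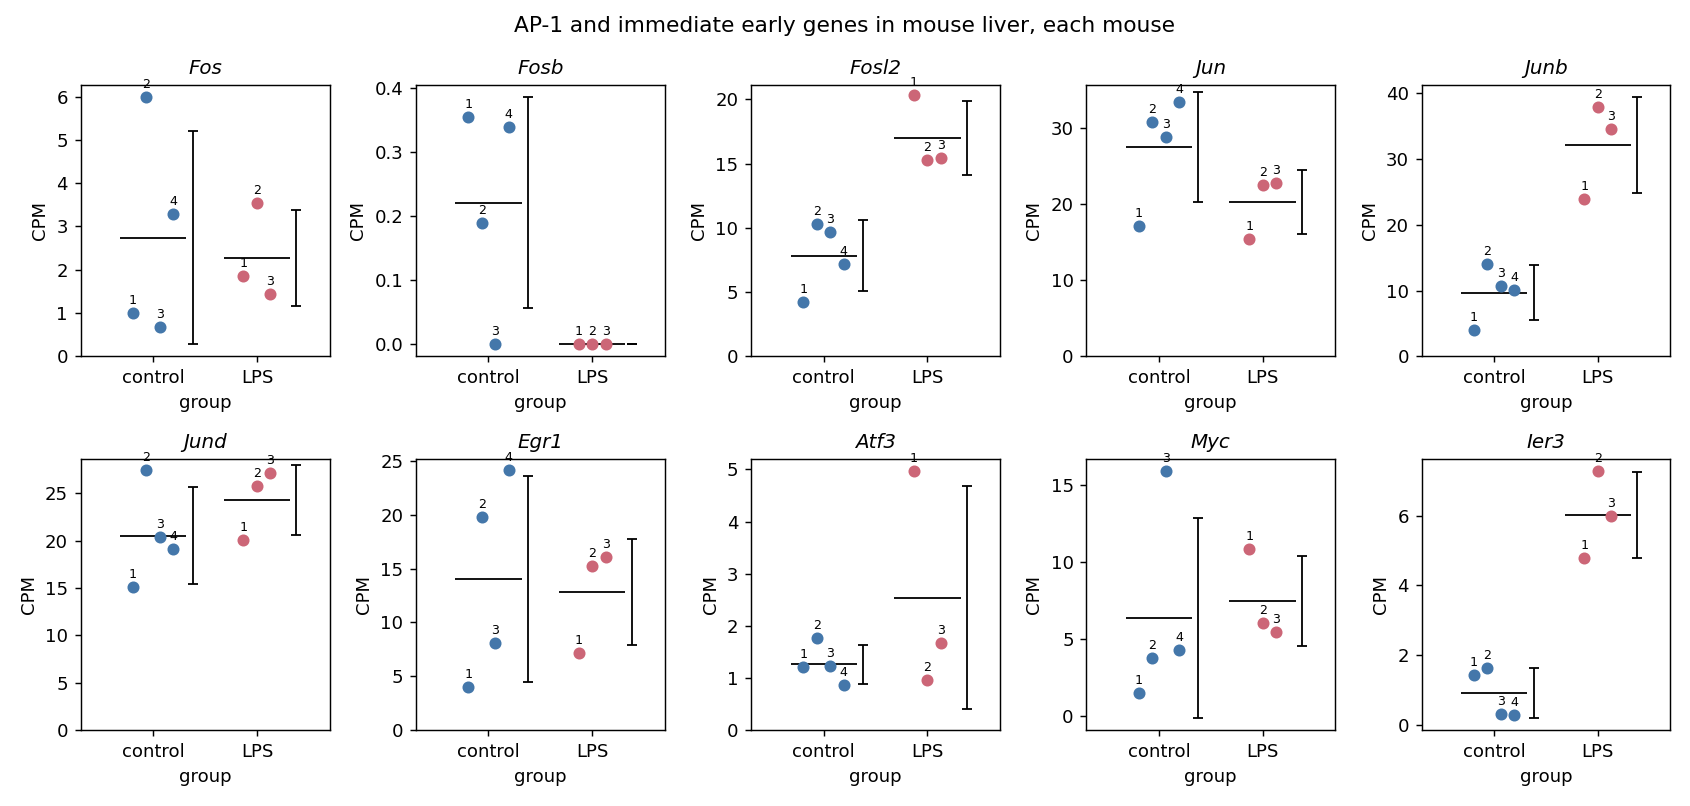
Level of each of the 10 genes in CPM (vertical axis, a scale of its own for each gene) in control and LPS-treated mice, with points for mice, numbered by replicate, lines for group means and bars for 1 SD. The groups are apart for Fosl2, Junb and Ier3, with lowest LPS-treated mice at 15.3, 23.8 and 4.79 CPM, and overlap for the other 7 genes.

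In the Jun family, whose proteins can pair with each other or with Fos proteins, Junb (ENSMUSG00000052837) was the gene past the threshold. Junb was at 4.03, 13.9, 10.7 and 10.1 CPM in control replicates 1 to 4 and at 23.8, 37.9 and 34.5 CPM in LPS replicates 1 to 3. The groups were apart, with control replicate 1 the lowest of all mice and LPS replicate 1 the lowest of the LPS-treated mice. The mean was 9.70 ± 4.14 CPM (SD, n = 4) in control mice and 32.1 ± 7.33 CPM (SD, n = 3) in LPS-treated mice, a log2 fold change of 1.72 (SE 0.31, edgeR adjusted p = 0.00124) or 3.29-fold. The 95% interval of the log2 fold change ran from 1.05 to 2.39, and with each mouse left out in turn it lay between 1.46 and 1.92. Without the mice numbered 1 of both groups, a choice made after seeing the data, it was 1.64. In whole liver, more cells of a type and more mRNA per cell cannot be told apart. JunB is known to act as a weaker activator than c-Jun on many AP-1 sites and to oppose it at some genes. In the GENCODE annotation 173 exon bases of Junb also belong to Prdx2 on the opposite strand. Prdx2 itself had a log2 fold change of -0.05 (adjusted p = 0.820 from edgeR). The libraries keep the strand, but whether counting used it is not given in the sources used here.

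Jun, which encodes c-Jun, the partner most used in AP-1, was at 17.1, 30.7, 28.7 and 33.3 CPM in control mice and at 15.4, 22.5 and 22.8 CPM in LPS-treated mice. LPS-treated mice lay below control replicates 2 to 4, and the overlap came from control replicate 1. The log2 fold change was -0.45 (95% interval -0.94 to 0.05, adjusted p = 0.174 from edgeR). Without control replicate 1, the mouse with the largest mitochondrial share, it was -0.62 with an adjusted p of 0.0229 from edgeR, over a range of 0.0229 to 0.457 for each mouse left out in turn. Without the mice numbered 1 of both groups it was -0.45 (adjusted p = 0.0720 from edgeR). Jund, the Jun gene known for a steady level in resting cells, was at 15.1, 27.4, 20.4 and 19.1 CPM in control mice and at 20.1, 25.7 and 27.1 CPM in LPS-treated mice. All 3 LPS-treated mice lay within the control range. Its log2 fold change was 0.24 (95% interval -0.19 to 0.67), and a log2 fold change of 1 lay outside that interval. On the opposite strand, 232 exon bases of Jun also belong to Junos, which had 72 counts over all mice, and 877 of Jund to Gm11175, which had 0.

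Set side by side per kilobase of exon, the make-up of Jun family mRNA differed between the groups. Junb made up 10.8%, 18.9%, 18.0% and 16.7% of the family's counts per kilobase in control replicates 1 to 4, and 38.0%, 42.3% and 39.1% in LPS replicates 1 to 3. No LPS-treated mouse came near a control mouse in this share, which does not depend on the scaling of libraries. Jun took the opposite course, from 34.4 ± 4.11% (SD, n = 4) to 18.2 ± 0.45% (SD, n = 3), and its groups were also apart. Jund held 49.5 ± 5.40% and 42.0 ± 2.34%, with overlap between the groups. These shares were not tested. A share of Jun can fall through a rise of Junb alone, so it does not show a fall of Jun.

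**Figure D2:**
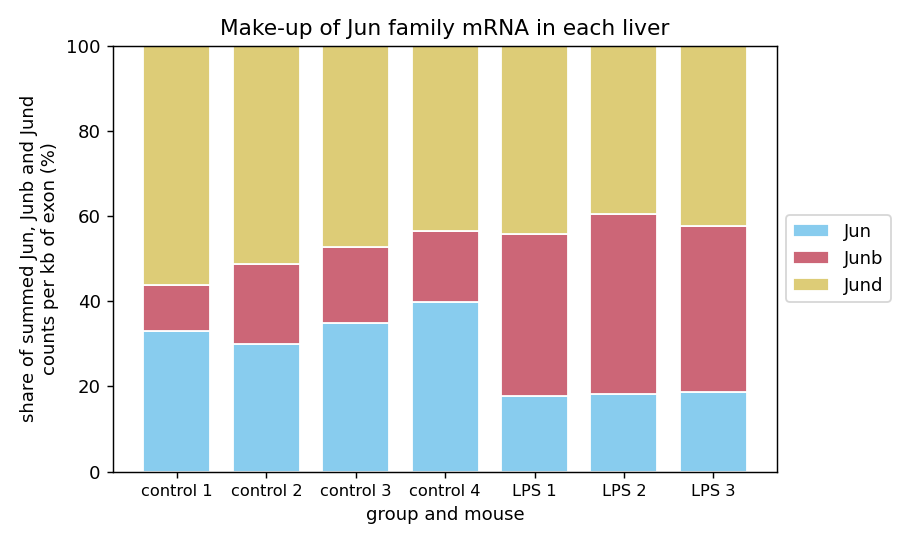
Share of Jun, Junb and Jund in the summed counts per kilobase of exon of the 3 genes (vertical axis, percent) in each mouse (horizontal axis). Stacked bars add up to the whole, and Junb fills 38.0% to 42.3% in LPS-treated mice against 10.8% to 18.9% in control mice.

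In the Fos family, whose proteins need a Jun partner to bind DNA, Fosl2 was higher and Fos was not. Fosl2 (ENSMUSG00000029135), which encodes Fra-2, a Fos protein without the strong activation domain of c-Fos, was at 4.25, 10.3, 9.72 and 7.16 CPM in control mice and at 20.3, 15.3 and 15.4 CPM in LPS-treated mice. The groups were apart, with LPS replicate 1 the highest and control replicate 1 the lowest. The mean was 7.85 ± 2.76 CPM (SD, n = 4) in control mice and 17.0 ± 2.87 CPM (SD, n = 3) in LPS-treated mice, a log2 fold change of 1.11 (95% interval 0.54 to 1.69, SE 0.26, edgeR adjusted p = 0.00782) or 2.16-fold. With each mouse left out in turn it lay between 0.91 and 1.26, and without the mice numbered 1 of both groups it was 0.76 (adjusted p = 0.0280 from edgeR, against 0.00586 to 0.0358 with single mice left out).

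Fos, the classic immediate early gene, was at 0.991, 6.00, 0.672 and 3.29 CPM in control mice and at 1.84, 3.54 and 1.43 CPM in LPS-treated mice. The control mice spanned the LPS-treated mice on both sides, with replicates 2 and 4 high and replicates 1 and 3 low, a span of 8.92-fold. The log2 fold change was -0.28 (SE 0.65, edgeR adjusted p = 0.798), and its 95% interval, from -1.68 to 1.13, reaches beyond a log2 change of 1 in both directions. Its sign turned without control replicate 2, where it was 0.41, and with replicate number as a block, where it was 0.31. Fosb had 5, 3, 0 and 7 counts in control mice and 0 in each LPS-treated mouse. Control replicate 3 was at 0 too, so the groups were not apart. Mean Fosb was 0.220 CPM in control mice, from 15 counts in all, and a floor of 3 counts came to 0.173 CPM in LPS libraries on average. The control mean has counting error of its own, so no bound on a fall is given. With no filter on low counts, Fosb was not past the threshold (adjusted p = 0.117 from edgeR). Fosl1, the remaining Fos gene, had 0 counts in all 7 mice. Of Fos family counts per kilobase, Fosl2 made up 29.2% to 77.8% in control mice and 51.1% to 72.8% in LPS-treated mice, and these ranges overlap.

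Ier3 (ENSMUSG00000003541) had the largest log2 fold change of the 9 genes tested. It was at 1.42, 1.64, 0.306 and 0.290 CPM in control mice, from 20, 26, 5 and 6 counts, and at 4.79, 7.28 and 5.98 CPM in LPS-treated mice, from 104, 113 and 96 counts. The groups were apart, and among control mice replicates 1 and 2 were high and replicates 3 and 4 near the floor. The mean was 0.913 ± 0.716 CPM (SD, n = 4) in control mice and 6.02 ± 1.24 CPM (SD, n = 3) in LPS-treated mice, a log2 fold change of 2.74 (SE 0.53, 95% interval 1.58 to 3.90, adjusted p = 0.00226 from edgeR) or 6.69-fold. With each mouse left out in turn it lay between 2.42 and 3.20, and without the mice numbered 1 of both groups it was 3.18. When 10 counts were required in every mouse, Ier3 could not be tested.

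Egr1, a zinc finger factor induced by growth factors and stress, was at 4.03, 19.8, 8.07 and 24.2 CPM in control mice and at 7.14, 15.3 and 16.1 CPM in LPS-treated mice. Control replicates 2 and 4 were high and replicates 1 and 3 low, as for Fos, and all LPS-treated mice lay within the control range. The log2 fold change was -0.14 (SE 0.48, 95% interval -1.19 to 0.90, adjusted p = 0.862 from edgeR). Its sign turned when control replicate 2, control replicate 4 or LPS replicate 1 was left out, where it was 0.04, 0.25 and 0.15. The corepressors Nab1 and Nab2, which bind Egr proteins and hold back their activity, were 2 of 2 tested and 0 were called with edgeR, at an unadjusted p below 0.05 or with DESeq2, with log2 fold changes of 0.19 and 0.34.

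Atf3, a stress-induced factor that pairs with Jun proteins and often represses, was at 1.20, 1.77, 1.22 and 0.871 CPM in control mice and at 4.98, 0.966 and 1.68 CPM in LPS-treated mice. LPS replicate 1 alone was above the control mice, and the other LPS-treated mice lay within their range. The log2 fold change was 1.02 (SE 0.55, 95% interval -0.17 to 2.22, adjusted p = 0.197 from edgeR), and without LPS replicate 1 it was 0.07 (adjusted p = 0.944 from edgeR, in a range of 0.0920 to 0.944 for each mouse left out in turn). LPS replicate 1 is the mouse with 752 CPM of macrophage markers. Its summed endothelial markers (163 CPM) were also above those of LPS replicates 2 and 3 (87.7 and 85.3 CPM). So were its erythroid markers (137 CPM, against 53.9 and 53.8 CPM). In control mice these sums were 101 to 157 CPM and 179 to 308 CPM, so its erythroid sum was below every control mouse. The part of these cells in the Atf3 level was not tested.

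Myc, a factor that drives ribosome production and cell growth, was at 1.49, 3.79, 15.9 and 4.26 CPM in control mice and at 10.8, 6.06 and 5.48 CPM in LPS-treated mice. The LPS-treated mice were above control replicates 1, 2 and 4, while control replicate 3 was the highest of all mice. The log2 fold change was 0.23 (SE 0.58, 95% interval -1.02 to 1.48, adjusted p = 0.809 from edgeR). Without control replicate 3 it was 1.22 with an adjusted p of 0.0366 from edgeR, and without control replicate 1 or LPS replicate 1 it was -0.09 and -0.14, over a range of adjusted p from 0.0366 to 0.967. The direction for Myc therefore rested on single mice.

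**Figure D3:**
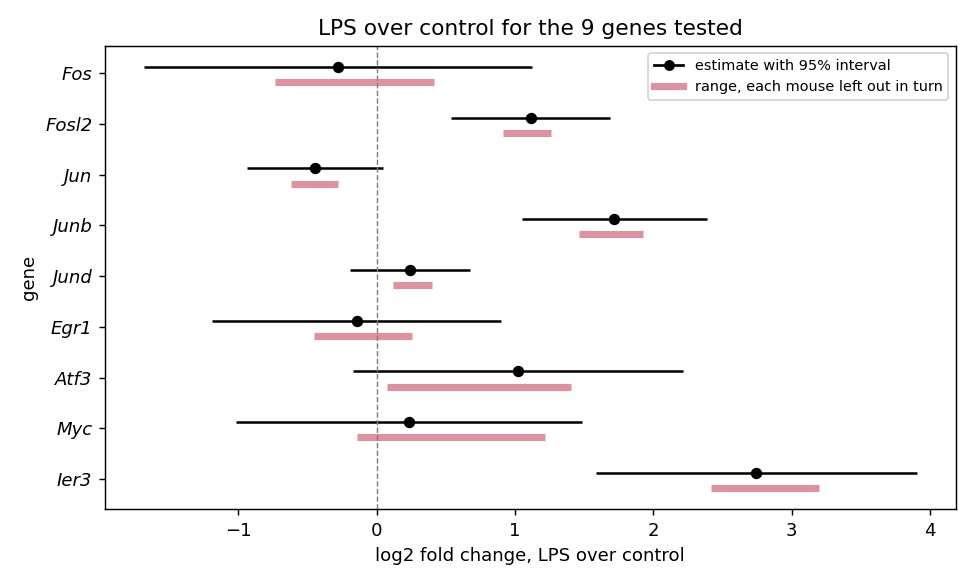
Log2 fold change of LPS-treated over control mice (horizontal axis) for the 9 genes tested (vertical axis), as points with 95% intervals, above red bars that span the estimates with each of the 7 mice left out in turn. Fosl2, Junb and Ier3 lie to the right of 0 with their whole interval, and the red bars of Fos, Egr1 and Myc cross 0.

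Several of these genes varied widely among control mice. The SD of log2 CPM over control mice was larger in Fos than in 98.5% of all genes tested, larger in Myc than in 98.5%, in Egr1 than in 97.0% and in Ier3 than in 96.6%. Jund, at 55.1%, was close to the middle of all genes. Among LPS-treated mice the widest was Atf3, with a larger SD than 97.2% of genes. Control replicate 1 was the lowest control mouse in 6 of the 9 genes tested and the highest in 0, while over all genes it was the lowest in 28.2% and the highest in 30%. Control replicate 2 was the highest control mouse in 6 of the 9, and over all genes in 22.9%. Control replicate 1 also had the largest mitochondrial share, 23.7%, and the highest summed levels of cholangiocyte markers (262 CPM, against 72.2 to 116 CPM in other control mice), stellate and fibroblast markers (564 CPM, against 244 to 403 CPM) and erythroid markers (308 CPM, against 179 to 233 CPM). The part of these in its values was not tested.

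Levels between genes were compared as CPM per kilobase of exon. In control mice the order was Jund (12.3 ± 3.06, SD, n = 4), Jun (8.61 ± 2.25), Junb (4.21 ± 1.80), Egr1 (3.13 ± 2.12), Myc (2.34 ± 2.38), Fos (1.16 ± 1.05), Fosl2 (0.811 ± 0.285), Ier3 (0.807 ± 0.633), Atf3 (0.588 ± 0.172) and Fosb (0.0353 ± 0.0264). Jun and Junb, and Atf3 and Fosb, were neighbours whose ranges of 1 SD were apart, and the ranges of other neighbours overlapped. These ranges leave aside that the genes were measured in the same mice. Mouse by mouse, Jund was also above Jun in all 4 control mice. In LPS-treated mice the order was Jund (14.6 ± 2.22, SD, n = 3), Junb (13.9 ± 3.19), Jun (6.34 ± 1.31), Ier3 (5.32 ± 1.10), Egr1 (2.86 ± 1.10), Myc (2.74 ± 1.08), Fosl2 (1.76 ± 0.30), Atf3 (1.18 ± 0.99), Fos (0.966 ± 0.476) and Fosb at 0. There Junb was level with Jund within 1 SD and apart from Jun, Ier3 was apart from Egr1, and Fos from Fosb. Within each of the 3 LPS-treated mice, Jun was also above Ier3 and Myc above Fosl2.

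For each gene tested, the genes with the most similar levels over the 7 mice were found among 8866 candidates, from which the members and the pathway lists were left out but cell type markers were not, by the root mean square difference of centred log2 CPM, and up to 2 are given for each. Egr1 was closest to Igfbp1, at a difference of 0.21, against a median of 0.90 over all candidates. Igfbp1 was high in control replicates 2 and 4 and low in replicates 1 and 3, like Egr1. Atf3 was closest to C1qa and Csf1r (0.27 and 0.29), and both are among the macrophage markers. Junb was closest to C3 (0.31), Fosl2 to Stk17b and Bin3 (both 0.24), and Ier3 to Isyna1 and Gm11843 (0.43 and 0.51). The nearest genes were Hmgb3 and Hacl1 for Jun (0.11 and 0.14), Mpnd for Jund (0.06), Arid5b and Fbxo30 for Myc (0.42 and 0.54), and Tcim and Mvk for Fos (0.58 and 0.63). The match for Fos was the poorest.

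Of 12 further basic leucine zipper genes that can join AP-1 or bind beside it, 10 were tested, 2 were higher and 0 lower, with edgeR and with DESeq2, and 0 had an unadjusted p below 0.05 for a fall. That is 20% called with edgeR, beside 26.3% of all genes. Batf, a factor of lymphoid and myeloid cells that replaces Fos in AP-1, had 0, 0, 2 and 1 counts in control mice and 51, 25 and 21 in LPS-treated mice. It was close to absent in control livers and passed the filter on low counts through the LPS group alone, so its place among the 2 is a description. Jdp2, a repressor that pairs with Jun, was at 0.367 to 0.991 CPM in control mice and 1.93 to 4.10 CPM in LPS-treated mice (log2 fold change 2.03, SE 0.47, adjusted p = 0.00695 from edgeR). With 10 counts required in every mouse, neither could be tested and 0 of the 7 genes left were called, beside 26.8% of all genes. Without LPS replicate 1, 3 of these genes were called.

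Of 35 other immediate early genes, 27 were tested, 9 were higher and 1 lower, or 37% called beside 26.3% of all genes, with a median log2 fold change of 0.60. Btg2, a growth-restraining gene, was at 7.22, 13.1, 8.37 and 22.2 CPM in control mice and at 60.7, 102 and 93.4 CPM in LPS-treated mice (log2 fold change 2.73, SE 0.33, adjusted p = 5.55e-05 from edgeR). The circadian clock gene Per1 and the small GTPase gene Rhob were also higher, with log2 fold changes of 2.13 (SE 0.30) and 1.29 (SE 0.16). Ccn1, which encodes a secreted matrix protein and is a target of YAP and serum response factor, was lower, from 8.62 to 28.5 CPM in control mice to at most 2.12 CPM in LPS-treated mice (log2 fold change -3.31, SE 0.38, adjusted p = 4.15e-05 from edgeR). All of these were apart between the groups, as genes named for their small p mostly are. Over all genes tested, the whole LPS group lay above in 18.1% and below in 17.4%. Nr4a1, singled out after its values were seen, was at 0.708, 11.5, 1.47 and 7.55 CPM in control mice and 1.62 to 2.95 CPM in LPS-treated mice. It was high in the same control replicates 2 and 4 as Fos and Egr1, and its log2 fold change of -1.28 was not past the threshold (adjusted p = 0.218 from edgeR).

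MAP kinases switch on AP-1 proteins by phosphorylation, and 23 of 23 genes of these cascades were tested. Of them 3 were higher with edgeR and 4 with DESeq2, 0 were lower with either, and 1 had an unadjusted p below 0.05 for a fall. With edgeR, 13% were called, beside 26.3% of all genes. The p38 kinase genes Mapk14 and Mapk13 and the p38 substrate gene Mapkapk2 were those higher. Mapkapk2 was at 29.0 to 36.8 CPM in control mice and 48.1 to 59.7 CPM in LPS-treated mice (log2 fold change 0.69, SE 0.14, adjusted p = 0.00359 from edgeR). Mapk14 had a log2 fold change of 0.44 (adjusted p = 0.0282 from edgeR) and was not past the threshold with total counts alone, with no filter, with LPS replicates 2 and 3 summed, or without control replicate 1, control replicate 2, LPS replicate 2 or LPS replicate 3. Mapk13 had 3 to 6 counts in control mice and 23 to 35 in LPS-treated mice. It passed the filter through the LPS group alone, and it could not be tested with 10 counts required in every mouse. With that filter 2 of 21 genes were higher and 1 lower, or 14.3% called beside 26.8% of all genes. Without control replicate 1, 5 of the 23 genes were called, and 2 without LPS replicate 2 or LPS replicate 3.

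Phosphatases and Sprouty proteins restrain this pathway. Of 15 such genes, 14 were tested, 1 was higher and 4 were lower (35.7% called, beside 26.3% of all genes), with a median log2 fold change of -0.32. The higher gene passed the filter on low counts through the LPS group alone and 1 of the lower genes through the control group alone. With 10 counts required in every mouse, 9 were tested, 0 were higher and 3 lower, with a median of -0.60. That is 33.3% called, beside 26.8% of all genes with that filter. Dusp1, an immediate early gene itself, encodes a phosphatase that inactivates p38 and JNK. It was at 55.1, 97.8, 90.7 and 86.0 CPM in control mice and at 18.8, 31.1 and 31.9 CPM in LPS-treated mice, a log2 fold change of -1.60 (SE 0.23, edgeR adjusted p = 0.000263) or 3.03-fold lower. Its groups were apart, with the whole LPS group low. Dusp6, whose product acts on ERK, was at 31.0 to 63.7 CPM and 12.4 to 17.0 CPM (log2 fold change -1.65, SE 0.26), and Spry4 at 3.18 to 5.44 CPM and 0.966 to 1.52 CPM (-1.86, SE 0.37). Dusp2, a phosphatase gene of immune cells, was the only one higher, from 0 to 0.694 CPM to 1.43 to 3.46 CPM (log2 fold change 2.54, adjusted p = 0.0238 from edgeR), and it was not past the threshold without LPS replicate 1, without control replicate 4, without the mice numbered 1 of both groups or with replicate number as a block. Without control replicate 4, 3 of the 14 genes were called. Neither kinase activity nor protein was measured by these counts.

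Heat shock genes, which also react to handling of tissue, were 17 of 17 tested, with 3 higher and 1 lower (23.5% called, beside 26.3% of all genes) and a median log2 fold change of -0.06. The small heat shock protein gene Hspb8 and its partner Bag3 were higher, with log2 fold changes of 1.54 (SE 0.17) and 0.93 (SE 0.15), as was Dnajb4 (0.53, SE 0.14, not past the threshold with total counts alone, with LPS replicates 2 and 3 summed or without LPS replicate 2 or 3), and another small heat shock gene, Hspb1, was lower (-1.60, SE 0.24). The inducible Hspa1b was at 16.9, 6.82, 9.78 and 6.34 CPM in control mice and at 12.4, 5.54 and 7.35 CPM in LPS-treated mice. Within each group its highest value was in the mouse numbered 1, and its groups overlapped (adjusted p = 0.692 from edgeR). It was named after its values were seen.

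Of 26 genes reported as AP-1 targets elsewhere, 18 were tested, 13 were higher and 2 lower. That is 83.3% called, beside 26.3% of all genes, with a median log2 fold change of 2.80. The other 8 had too few counts. Of the 18, 7 passed the filter through the LPS group alone, where they are high, so the share and the median are a description. With 10 counts required in every mouse, 10 were tested, 6 were higher and 2 lower, with a median of 1.39, and 26.8% of all genes were called. Cxcl1, a neutrophil chemokine gene, was at 1.16 to 5.11 CPM in control mice and 146 to 195 CPM in LPS-treated mice (log2 fold change 5.96, SE 0.35, adjusted p = 1.17e-07 from edgeR). Hmox1, which encodes heme oxygenase 1, and Mmp14, a membrane metalloproteinase gene, had log2 fold changes of 3.45 (SE 0.24) and 1.93 (SE 0.14). Vegfa and Ccnd1, for a vascular growth factor and cyclin D1, were lower, at -0.91 (SE 0.20) and -1.41 (SE 0.32). All 5 were apart between the groups, but they were named for their small p. Of all genes tested, 18.1% had the whole LPS group above the control group and 17.4% below. These genes have other regulators, NF-kappa B among them, and which factor moved them was not tested. Mmp9 is also in the neutrophil marker list and Spp1 in the cholangiocyte list.

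Markers of blood-borne cells moved with the same contrast. The neutrophil list had 13 of 14 genes in the table and 9 tested. All 9 were higher, but 7 of them passed the filter on low counts through the LPS group alone, so this count is a description. The untested Camp, Elane, Mpo and Ly6g, named after their values were seen, had no mouse over 8 counts. The list had a summed level of 2.32 to 5.24 CPM in control mice and 163 to 225 CPM in LPS-treated mice, and no marker in the table was at 0 in every mouse. S100a9 was the most abundant of them in LPS-treated mice, while Csf3r was above it in every control mouse. Of 8 monocyte markers, 7 were higher, 4 of them genes that passed the filter through the LPS group alone (summed 643 to 932 CPM and 2511 to 3021 CPM, led by Fn1, which hepatocytes also make). Of the 12 macrophage markers, 5 were higher, and Clec4f, a Kupffer cell lectin gene, was lower. C1qa, among those higher, overlapped between the groups (log2 fold change 0.87). It was not past the threshold without LPS replicate 1, where it was 0.40, nor in some other fits. Endothelial markers gave 2 higher and 2 lower of 10, with 1 of the lower ones past the filter through the control group alone. For the rest, stellate and fibroblast markers gave 0 higher and 3 lower of 10, cholangiocyte markers 1 and 0 of 5, erythroid markers 0 and 4 of 5, and exocrine pancreas and gut markers 0 and 2 of 3, with Prss2, Cpa1 and Pnlip at 0 in all mice. Beside these marker counts, 13.3% of all genes tested were higher and 13% lower. Lymphocyte markers gave 1 higher and 2 lower of 5, and each of these passed the filter only through the group where it is high, so nothing is read from them. Junb, Fosl2 and Ier3 are expressed in leukocytes as well as in hepatocytes. The part of arriving cells in their higher levels was not tested.

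Atf3 is also induced by the integrated stress response, in which translation of Atf4 switches on amino acid and stress genes. Of 22 genes of this response, 20 were tested, 5 were higher and 1 lower (30% called, beside 26.3% of all genes), with a median log2 fold change of 0.11. Asns, for asparagine synthetase, was at 1.83 to 3.91 CPM in control mice and 17.7 to 32.2 CPM in LPS-treated mice (log2 fold change 3.27, SE 0.28, adjusted p = 3.05e-06 from edgeR). Ddit3, which encodes CHOP, and Nupr1 were higher by 2.09 (SE 0.27) and 2.41 (SE 0.31) on the log2 scale in all 3 LPS-treated mice. The serine pathway gene Shmt2 was lower (-0.61, SE 0.14), and its adjusted p was not past the threshold without LPS replicate 2. Atf4 mRNA had a log2 fold change of 0.04 (SE 0.15).

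Of 15 partners and antagonists of Myc, 14 were tested, 2 were higher and 1 lower (21.4% called, beside 26.3% of all genes), with a median log2 fold change of -0.07. Mxd1, which competes with Myc for Max, was at 3.54 to 5.19 CPM in control mice and 8.53 to 9.63 CPM in LPS-treated mice (log2 fold change 1.03, SE 0.22, adjusted p = 0.00470 from edgeR). Pim1, a kinase gene that is also in the immediate early list, had a log2 fold change of 0.70 (SE 0.19) and was not past the threshold without LPS replicate 3 or with replicate number as a block. Mlxipl, which encodes the carbohydrate-responsive factor ChREBP, was lower, from 203 to 317 CPM to 27.9 to 51.2 CPM (-2.72, SE 0.24). Of 32 genes reported as Myc targets, all tested, 5 were higher with edgeR and 7 with DESeq2, 0 were lower with either, and 0 had an unadjusted p below 0.05 for a fall. That is 15.6% called with edgeR, beside 26.3% of all genes, with a median of 0.16. Tfrc, the transferrin receptor gene, Ldha, for lactate dehydrogenase, and Rrs1, a ribosome assembly gene, had log2 fold changes of 2.13 (SE 0.18), 1.37 (SE 0.20) and 0.94 (SE 0.16).

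The promoters of Junb, Fosl2 and Ier3 are shown because these are the 3 genes that were higher in the LPS group. Within the LPS group their order over mice differed, with LPS replicate 1 the highest for Fosl2 and the lowest for Junb and Ier3. They come from the RefSeq promoter table on build GRCm38.p6, in which 8 of the 10 genes were matched, all but Egr1 and Myc, each with 250 bases before and 50 after the start of transcription. In these windows 7 motifs were searched on both strands: the AP-1 site TGANTCA, the cyclic AMP response element TGACGTCA, the STAT site TTCNNNGAA, the EGR site GCGNGGGCG, the E-box CACGTG, the CArG box and the NF-kappa B site. They are held by 7.81%, 1.79%, 8.30%, 5.55%, 7.15%, 1.63% and 4.51% of all 32851 promoters of this length. The NF-kappa B site was matched in 4 of the 8 genes (Fos, Fosb, Fosl2 and Ier3) and the EGR site in 2 (Fosb and Fosl2), and the other motifs in 0. Capitals mark matches in the 250 bases before the start, printed on the strand of the gene: in Ier3 an NF-kappa B match at bases -92 to -83, on the opposite strand, and in Fosl2 overlapping NF-kappa B matches on both strands from -182 to -172 and an EGR match at -79 to -71. Junb has none of these letters here, which says nothing of the factors. Ier3 is at chr17:35821463-35821712 on the plus strand, Fosl2 at chr5:32136222-32136471 on the plus strand and Junb at chr8:84978749-84978998 on the minus strand.
Ier3: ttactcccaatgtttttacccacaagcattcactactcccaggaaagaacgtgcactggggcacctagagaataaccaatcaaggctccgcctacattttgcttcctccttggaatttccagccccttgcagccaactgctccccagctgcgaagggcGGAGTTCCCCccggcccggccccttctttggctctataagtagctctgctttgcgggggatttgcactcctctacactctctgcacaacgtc
Fosl2: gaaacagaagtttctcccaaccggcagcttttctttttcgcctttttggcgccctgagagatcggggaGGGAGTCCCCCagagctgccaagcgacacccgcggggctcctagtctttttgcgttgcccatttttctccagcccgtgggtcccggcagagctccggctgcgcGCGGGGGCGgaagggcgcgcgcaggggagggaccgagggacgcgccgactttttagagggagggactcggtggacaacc
Junb: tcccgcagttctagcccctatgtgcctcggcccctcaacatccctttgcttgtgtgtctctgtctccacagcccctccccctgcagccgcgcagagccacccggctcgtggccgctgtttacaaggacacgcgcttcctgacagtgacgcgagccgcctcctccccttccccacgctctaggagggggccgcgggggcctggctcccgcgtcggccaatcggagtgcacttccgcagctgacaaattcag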

How the data were processed

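RNA from 7 livers was enriched for poly(A), made into strand-specific libraries and sequenced on the MGISEQ2000. The authors deposited counts: whole numbers of reads per gene, not normalized, for 56691 genes. The submitters' processing notes name cutadapt 1.9.1, HISAT2 2.2.1, HTSeq 0.6.1, DESeq2 1.34.0 and build GRCm39; the strand setting of the counter and the treatment of reads that match several genes are not given in the sources used here. Counts were filtered with filterByExpr, scaled by TMM and compared with the quasi-likelihood test of edgeR 4.0.16 in R 4.3.3, on group alone, and p was adjusted by Benjamini and Hochberg's method over 13683 genes. Calls are at an adjusted p below 0.05. SE is the log2 fold change over the square root of F, without sign, and 95% intervals use the t distribution. CPM are counts over the TMM-scaled library size, given for each mouse. Exon lengths and overlapping genes come from GENCODE M21, which holds 52073 of the identifiers. Fits were tested on simulated data.

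Named are the 10 genes, the 3 called genes with the smallest p in each direction of each list, up to 2 genes outside the members and pathway lists nearest to each tested gene (mean CPM 5 or more), and label checks (Hp, Saa1, Lcn2, Alb). Other genes named were chosen after their values were seen: Nab1, Nab2, Atf4, Fosl1, Nr4a1, Hspa1b, Prdx2, Junos, Gm11175, Mmp9, Spp1 and the genes named from marker lists. The members and lists were chosen with earlier results of these data known. The comparison was repeated with DESeq2 1.42.0, with RLE factors, with total counts, leaving out mitochondrial genes or genes over 1% of counts, other filters and thresholds, a replicate block, LPS replicates 2 and 3 summed, and each mouse left out.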

Additional observations from a re-analysis of the deposited data

Results flagged for a closer look

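Mapk13, a p38 kinase gene, had 1 control mouse above the others. Control replicate 1 was at 0.425 CPM (6 counts), against 0.189, 0.183 and 0.145 CPM (3 counts each) in control replicates 2 to 4. The gap to the nearest mouse was 0.842 of the whole range, past Dixon's 95% limit for 4 values. Chance puts about 1 in 20 groups past this limit, and 43 sets of control values were examined. The other control mice all sat at the floor of 3 counts, so the spread among them comes from library size alone, and the step from 3 to 6 counts is small beside counting error. LPS-treated mice had 23 to 35 counts.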

How the results depend on the processing

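Junb and Fosl2 were called higher in every alternative run, and Ier3 in every one that tested it (10 counts in every mouse left it out). A log2 fold change above 1 left 1068 higher and 1000 lower genes of all tested, an adjusted p below 0.01 left 1091 and 993, and each mouse left out gave 1290 to 1906 higher and 1146 (without LPS replicate 2; 1159 without LPS replicate 3) to 1868 lower. Members called lower were 0 to 1 with each mouse left out (Jun without control replicate 1). Among the lists, the fold threshold left 1 MAP kinase, 2 heat shock and 2 Myc target genes called, and an adjusted p below 0.01 left 3 phosphatase and 3 Myc target genes. With 10 counts in every mouse, 0 other basic leucine zipper, 3 phosphatase and 8 AP-1 target genes were called, fewer genes being tested, and with no filter 17 other immediate early genes. With LPS replicates 2 and 3 summed, 3 Myc target genes were called. Each mouse left out gave 2 to 5 MAP kinase and 3 to 5 phosphatase genes. The log2 fold change reversed in some of these fits for Fos (-0.73 to 0.41), Egr1 (-0.45 to 0.25) and Myc (-0.14 to 1.22), and the cause was not tested. Without the mice numbered 1 of both groups, chosen after seeing the data, 1620 genes were higher and 1523 lower, the same 3 members were called, and Myc was at -0.46. Total counts alone moved the median log2 fold change of all genes by -0.12 and gave 1350 genes higher and 2057 lower, so the near balance of 1825 and 1773 depends on the scaling.

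The replicate numbers name different animals. Deviations of same-numbered mice from their group means correlated at 0.18, -0.06 and 0.07 across genes for numbers 1, 2 and 3, and not every mouse correlated best with its own number, so no pairing was used. With the number as a replicate block, 3234 genes were called, 2984 of them among the 3598 called without it, and the same 3 members. Fos was then at 0.31 and Egr1 at 0.46.

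With 4 and 3 mice, intervals were wide for genes that vary between livers, and Fosb was too low to pass the filter (not called with no filter). Whole liver mRNA does not show which cells, or which proteins, changed.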
